A study of Mus musculus with 6 samples.

Results

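The NF-κB subunits and their inhibitors were examined in 4T1 cells, a mouse mammary carcinoma line, after exposure to P3FI-90, an inhibitor of the histone demethylase KDM3B. The 10 genes were selected by their symbols in the deposited read counts: the subunit genes Rela, Relb, Nfkb1 and Nfkb2, the inhibitor genes Nfkbia, Nfkbib, Nfkbie and Nfkbiz, and the feedback regulators Tnfaip3 and Bcl3. They were picked by gene family from results of this same comparison, so their differences between the groups are given as a description, without a test. The table held 22105 named genes, 12288 of which had enough counts to be tested, and all 10 genes were among the tested ones.

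The cells were cultured for 24 h with DMSO, the vehicle, or with 10 µM P3FI-90, and 3 RNA-seq libraries were made per group from the same line. The labels do not say whether the libraries of a group came from separate cultures, so the spread between them may be technical. A single dose, a single time and a single compound were measured, and no library without vehicle was analysed here. Reads on named genes totalled between 31327094 and 37395732 per library. Normalized counts are these counts scaled by edgeR's TMM factors to the mean effective library size.

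The 5 epithelial markers were all detected in every library. Their summed level lay between 3969 and 4180 CPM (counts scaled to library size) in the DMSO libraries and between 1602 and 1684 CPM in the P3FI-90 libraries, and 5 of 5 were lower after treatment. The 7 leukocyte markers summed to between 11.3 and 14.2 CPM under DMSO and between 11.5 and 14.6 CPM under P3FI-90, with Adgre1 at 0 in every library. The 3 endothelial markers summed to at most 0.378 CPM under DMSO and at most 0.754 CPM under P3FI-90. The 4 fibroblast markers summed to between 38.1 and 39.3 CPM under DMSO and between 26.0 and 29.1 CPM under P3FI-90, with Lum at 0 in every library. The part of the epithelial decrease in any difference given here was not tested. In bulk RNA, fewer cells with a transcript and less of it per cell cannot be told apart. Kdm3b itself, the gene of the inhibitor's target, had 2851 ± 67.4 normalized counts (SD, n = 3) under DMSO and 3109 ± 55.7 under P3FI-90, which is 1.09-fold (log2 0.13, SE 0.043). Its edgeR adjusted p was 0.0169, and 4 of 15 other ways of processing the counts lost that call. With fold changes freed of their dependence on transcript length and GC, the value was −0.07.

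NF-κB proteins are dimeric transcription factors that are held in the cytoplasm by inhibitors of the IκB family until a signal from a cytokine or microbial receptor leads to the destruction of the inhibitor. In the canonical route, RelA bound to p50 (from Nfkb1) is freed from IκBα, whereas in the non-canonical route the p100 precursor (from Nfkb2) is cleaved to p52, the partner of RelB. Many genes of the system are themselves known NF-κB targets, among them those for IκBα, A20, p100 and RelB, and so form feedback loops.

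The difference between the groups was wide across the transcriptome, which sets the background for every count below. Of the 12288 genes tested, 79.3% passed edgeR's quasi-likelihood test at an adjusted p under 0.05, 39.9% as higher and 39.4% as lower in P3FI-90. Higher levels by more than 1 on the log2 scale were called for 12.7% of the genes and lower levels by more than 1 for 10.6%. The 3 libraries of each group did not overlap for 81.2% of the genes. By the same rules 8 of the 10 NF-κB genes were called, 5 higher and 3 lower, and the groups did not overlap for the same number, 5 above and 3 below. Higher levels by more than 1 on the log2 scale were called for 4 of the 10 genes, and lower levels by more than 1 for 1. The median log2 fold change was 0.13 for the 10 genes and 0.01 for all tested genes. Since the genes were chosen on this comparison, nothing is read from these counts.

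**Figure D1:**
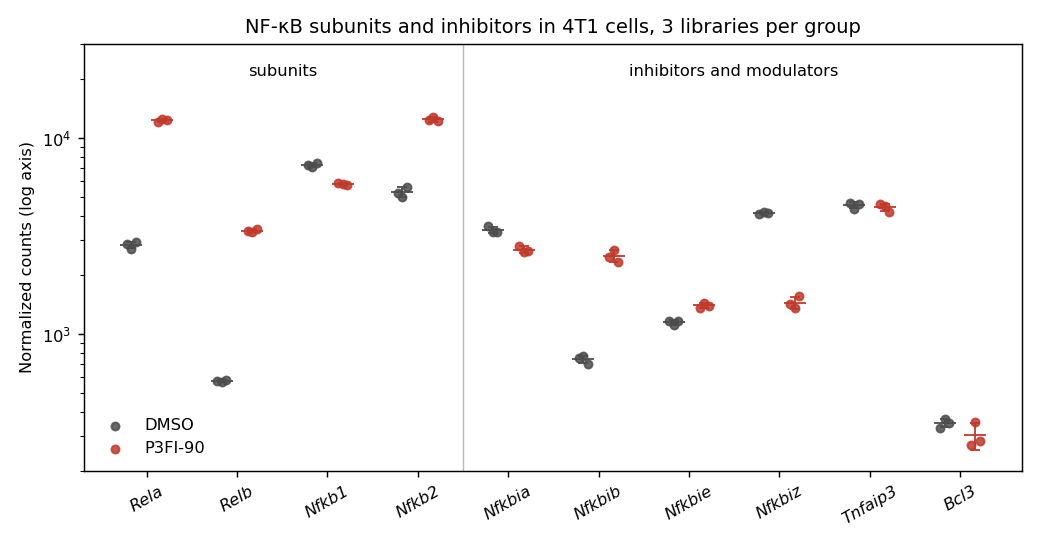
Normalized counts (vertical log axis) of the 10 genes in the 3 DMSO and 3 P3FI-90 libraries, with the mean and SD drawn as bars. Rela, Relb, Nfkb2 and Nfkbib lie far above the DMSO libraries, Nfkbiz lies far below, and the groups overlap for Tnfaip3 and Bcl3.

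Among the subunits, Rela, which encodes the transactivating subunit p65, had 2873, 2707 and 2924 normalized counts in the DMSO libraries and 11970, 12494 and 12222 in the P3FI-90 libraries. Every treated library lay above every control library. The mean went from 2835 ± 113 to 12228 ± 262 (SD, n = 3), which is 4.31-fold (log2 fold change 2.11, SE 0.039). Of all tested genes, 3.95% had a log2 fold change at least as high.

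Relb encodes the transactivating subunit of the non-canonical dimer and, per length, had the lowest DMSO level of the 4 subunit genes in the set by either gene length used. Its normalized counts were 572, 569.7 and 581 under DMSO and 3333, 3301 and 3414 under P3FI-90, again with no overlap. The means were 574 ± 5.87 and 3349 ± 58.3, a 5.83-fold difference (log2 2.54, SE 0.051), and 2.99% of tested genes were at least as high. Among the 10 genes, Relb had the highest log2 fold change.

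The precursor genes stood on opposite sides. Nfkb2 had 5222, 4969 and 5579 normalized counts under DMSO and 12236, 12769 and 12113 under P3FI-90, with means of 5256 ± 306 and 12373 ± 349. The treated libraries were all higher, by 2.35-fold on average (log2 1.23, SE 0.043), and 9.52% of tested genes were at least as high. Nfkb1, which encodes p105 and its product p50, had 7244, 7042 and 7404 normalized counts under DMSO and 5865, 5809 and 5698 under P3FI-90. Its treated libraries were all lower, with means of 7230 ± 182 and 5791 ± 84.7, a log2 fold change of −0.32 (SE 0.035). The sign of the smaller difference of Nfkb1 depends on the scale used, as given below for levels per length.

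The remaining family member Rel, the gene of c-Rel, is not among the 10 genes. It had 598.8 ± 95.6 normalized counts under DMSO and 1685 ± 47.7 under P3FI-90, a 2.82-fold difference (SE 0.090 on the log2 scale). With Rel counted, 4 of the 5 subunit genes were higher in every treated library, as were 5033 of the 12288 genes tested. Nothing is read from this count either, since the genes were picked by family from the same comparison.

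Nfkb2 overlaps its neighbours. In GENCODE M21 its exons share 299 bases with Psd and 531 bases with AC114539.1, both on the opposite strand, and 14.9% of its 50-base windows also occur in those genes. Psd went from 198 to 1579 mean normalized counts, a log2 fold change of 3.00. The strand setting of the counting is not given in the sources used here, and the share of Nfkb2 reads from Psd was not tested. Rela had no such window.

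The classical IκB genes, whose products hold NF-κB dimers in the cytoplasm, moved apart from each other. Nfkbia, encoding IκBα, had 3536, 3317 and 3301 normalized counts under DMSO and 2811, 2604 and 2631 under P3FI-90. All treated libraries were lower, with means of 3384 ± 131 and 2682 ± 112, or 0.792 times the DMSO mean (log2 −0.34, SE 0.049).

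Nfkbib, encoding IκBβ, went the other way, with 749.9, 766 and 704 normalized counts under DMSO and 2467, 2672 and 2332 under P3FI-90. The means were 740.0 ± 32.0 and 2490.4 ± 171, a 3.37-fold difference (log2 1.75, SE 0.063). No treated library overlapped a control library, and 5.39% of tested genes were at least as high. Nfkbib shares 314 exonic bases with Ccer2, which was at 0 in every library, and 42 with Sirt2, which had a log2 fold change of 0.29.

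Nfkbie, encoding IκBε, had 1159, 1106 and 1157 normalized counts under DMSO and 1358, 1431 and 1391 under P3FI-90. The groups did not overlap, and the means of 1141 ± 30.3 and 1393 ± 36.9 differed by 1.22-fold (log2 0.29, SE 0.056). Of the 3 classical inhibitors, Nfkbib thus had the largest difference. On total counts and per length, the lower level of Nfkbia depends on the scale as that of Nfkb1 does. Its log2 fold change was −0.12 on total counts and 0.08 on the per-length scale described below. Without the length and GC trend the value was −0.15 for Nfkbia, a smaller fall, and −0.44 for Nfkb1, a larger one.

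The atypical IκB proteins act in the nucleus, where they bind NF-κB dimers on chromatin and can raise or lower transcription. Nfkbiz, encoding IκBζ, had 4063, 4159 and 4135 normalized counts under DMSO and 1408, 1349.6 and 1557 under P3FI-90. All treated libraries were lower, with means of 4119 ± 49.9 and 1438 ± 107, or 0.349 times the DMSO mean (log2 −1.52, SE 0.055). At least as low a log2 fold change was found for 3.87% of tested genes. Nfkbid, a further atypical inhibitor gene outside the set, had 208 ± 20.1 and 64.9 ± 9.40 normalized counts, or 0.311 times the DMSO mean (log2 −1.68, SE 0.19).

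Bcl3, which encodes a nuclear partner of p50 and p52 dimers, had 332, 365 and 351 normalized counts under DMSO and 269, 356 and 283 under P3FI-90. The second treated library lay among the controls, so the groups overlapped, and the log2 fold change was −0.20 with an SE of 0.13. Without that library the difference was −0.34. On total counts it was 0.01, and with the length and GC trend removed it was 0.04, so no direction is given for Bcl3. Of its exons, 6.51% are shared with the antisense gene Gm16175.

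Tnfaip3, encoding the ubiquitin-editing enzyme A20 that ends signalling upstream of IκB kinase, had 4633, 4336 and 4593 normalized counts under DMSO and 4564, 4471 and 4195 under P3FI-90. The groups overlapped. The means were 4520 ± 161 and 4410 ± 192 and the log2 fold change was −0.04 (SE 0.042). On total counts in place of TMM it was 0.18, and with fold changes freed of their dependence on transcript length and GC it was −0.31, so no direction is given for Tnfaip3.

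**Figure D2:**
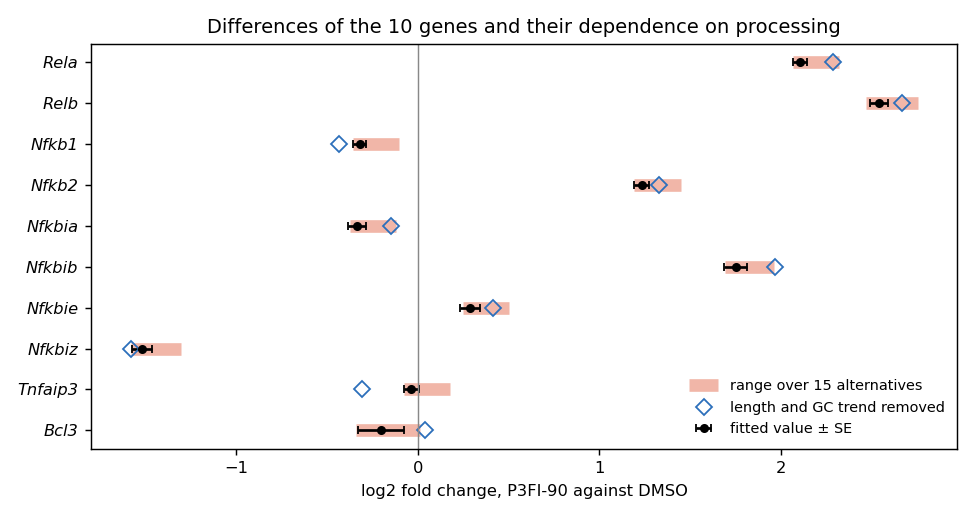
Log2 fold change of P3FI-90 against DMSO (horizontal axis) for each of the 10 genes, with the fitted value and SE as points, the range over 15 other ways of processing as bands and the value without a length and GC trend as diamonds. The bands of Tnfaip3 and Bcl3 cross 0, and those of the other 8 genes stay on their side.

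The choice of scaling moved all these differences together. Scaling to total counts put the median of all tested genes at 0.23 on the log2 scale, against 0.01 with TMM, and raised every one of the 10 values. Nfkb1 then stood at −0.11 and Nfkbia at −0.12, whereas Rela reached 2.32 and Relb 2.76. Over the 15 alternatives the range was 2.07 to 2.32 for Rela, 2.47 to 2.76 for Relb, 1.19 to 1.45 for Nfkb2 and 1.70 to 1.97 for Nfkbib. Nfkbiz ranged from −1.58 to −1.30 and Nfkbie from 0.25 to 0.50.

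To compare levels between genes, counts were divided by the exon length of each gene model and scaled to a fixed total per library (a TPM-like level). Under DMSO the order was Nfkbia with 180 ± 6.01, Nfkb2 with 98.3 ± 6.03, Rela with 79.1 ± 3.24 and Nfkbiz with 70.3 ± 1.20. Tnfaip3 with 53.6 ± 1.86 and Nfkb1 with 51.4 ± 1.42 came next, and their libraries overlapped. Nfkbie stood at 32.1 ± 0.845 and Nfkbib at 29.2 ± 1.17. Relb with 12.7 ± 0.186 and Bcl3 with 12.1 ± 0.621 closed the order, again with overlapping libraries. The libraries of all other neighbours in this order did not overlap. Nfkbia was thus the most abundant of the 10 transcripts per length and Relb and Bcl3 the least abundant.

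Under P3FI-90 the order was led by Rela with 454 ± 9.32, Nfkb2 with 308 ± 7.27 and Nfkbia with 190.1 ± 7.88. Nfkbib with 131 ± 8.30 and Relb with 98.4 ± 2.29 stood above Tnfaip3 with 69.7 ± 2.70, Nfkb1 with 54.8 ± 0.570 and Nfkbie with 52.2 ± 1.32. Nfkbiz with 32.7 ± 2.62 and Bcl3 with 14.0 ± 2.09 were lowest, and neighbours in this order did not overlap between libraries. On this scale the median tested gene was itself higher by 0.42 log2 units in P3FI-90, and Nfkb1, Nfkbia, Tnfaip3 and Bcl3 turned to positive differences of 0.09, 0.08, 0.38 and 0.21. For that reason the levels serve to order genes within a group and not to compare groups.

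The place of Nfkb1 in the order rests on its length. Its gene model spans 12061 exonic bases and its longest transcript 4149, and by the longest transcript its DMSO level was 113 ± 3.03 in place of 51.4, above Nfkb2 with 88.8 and below Nfkbia with 139. Relb with 11.4 then stood below Bcl3 with 12.3, so the order of these genes is not settled. Under P3FI-90 the longest transcript put Nfkb1 at 120 ± 1.17, above Nfkbib with 104, Relb with 88.1 and Tnfaip3 with 61.2. Its place in the treated order is not settled either.

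Shares within a family do not depend on the scaling between libraries. Among the 5 subunit genes, Rela held 32.3, 31.6 and 31.7% of the summed per-length level in the DMSO libraries and 47.9, 48.4 and 48.5% in the P3FI-90 libraries. Relb went from 5.10 ± 0.140% to 10.5 ± 0.311%. Nfkb1 went from 20.7 ± 0.242% to 5.82 ± 0.132% and Nfkb2 from 39.6 ± 0.864% to 32.7 ± 0.467%. Rel held 2.78 ± 0.545% and 2.74 ± 0.122%, which overlapped. The transactivating genes Rela and Relb thus held larger shares in all 3 treated libraries, and the precursor genes smaller ones. By the longest transcript Rela went from 23.7 to 43.4% and Nfkb1 from 39.5 to 13.5%, but Nfkb2 stayed within its spread at 30.98 ± 0.742% and 31.04 ± 0.441%.

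**Figure D3:**
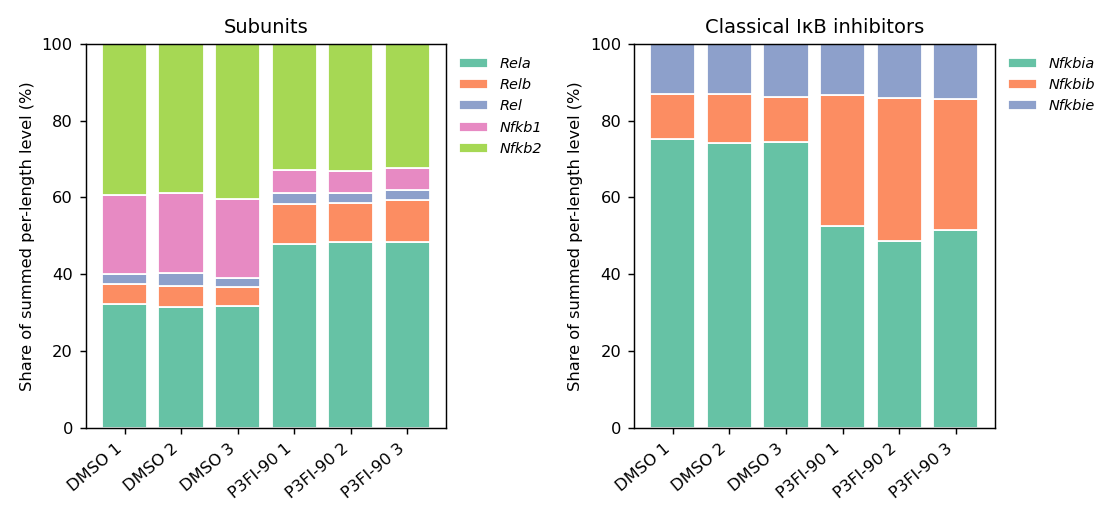
Shares (%) of the summed per-length level held by each of 5 subunit genes (left) and of 3 classical IκB genes (right) in each of the 6 libraries. Rela and Relb fill a larger part of the subunit bars in P3FI-90, and Nfkbib fills a larger and Nfkbia a smaller part of the inhibitor bars.

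Among the classical inhibitors, Nfkbia held 75.1, 74.2 and 74.4% of the summed per-length level under DMSO and 52.4, 48.7 and 51.6% under P3FI-90. Nfkbib held 12.1 ± 0.527% and 35.1 ± 1.77%, and Nfkbie 13.3 ± 0.433% and 14.0 ± 0.536%. Nfkbia remained the main IκB transcript in every library, with Nfkbib second in all treated libraries. The ratio of the 3 classical IκB transcripts to Rela, Relb and Rel together was 2.53, 2.47 and 2.35 in the DMSO libraries and 0.668, 0.646 and 0.623 in the P3FI-90 libraries. By the longest transcript the mean ratio was 2.22 under DMSO and 0.586 under P3FI-90. The ratio leaves out the precursor genes Nfkb1 and Nfkb2, and Rela had the highest level of the 3 genes it divides by in every library. It is thus no measure of all inhibitors against all subunits. These are ratios of RNA, and the proteins were not measured.

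Promoter windows of 250 bases before and 50 after the annotated start, from RefSeq (GRCm38.p6), were found for 7 of the 10 genes, namely Rela, Nfkb2, Nfkbia, Nfkbib, Nfkbie, Tnfaip3 and Bcl3. Relb, Nfkb1 and Nfkbiz had no entry. The κB consensus, the DNA sequence that NF-κB dimers bind, was searched on both strands. A match occurred in 5 of the 7 genes, against 5.14% of the 27025 genes with a window. These genes were picked by family and several of them are textbook NF-κB targets, so the count is a description. The windows of Nfkb2 and Nfkbia are shown as those of known targets with a match, and those of Rela and Nfkbib as the windows without one, 5′ to 3′ on the gene's strand with matches in capitals. They lie at chr19:46304487-46304786 on the plus strand for Nfkb2 (the first of 3 annotated starts), at chr12:55492598-55492897 on the minus strand for Nfkbia, at chr19:5637291-5637590 on the plus strand for Rela and at chr7:28766595-28766894 on the minus strand for Nfkbib.
Nfkb2: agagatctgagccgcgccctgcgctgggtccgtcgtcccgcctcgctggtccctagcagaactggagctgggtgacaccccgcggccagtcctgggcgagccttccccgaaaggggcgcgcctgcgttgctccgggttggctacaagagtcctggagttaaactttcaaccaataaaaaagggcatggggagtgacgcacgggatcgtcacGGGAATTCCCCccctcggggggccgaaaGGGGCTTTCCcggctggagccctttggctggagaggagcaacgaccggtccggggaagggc
Nfkbia: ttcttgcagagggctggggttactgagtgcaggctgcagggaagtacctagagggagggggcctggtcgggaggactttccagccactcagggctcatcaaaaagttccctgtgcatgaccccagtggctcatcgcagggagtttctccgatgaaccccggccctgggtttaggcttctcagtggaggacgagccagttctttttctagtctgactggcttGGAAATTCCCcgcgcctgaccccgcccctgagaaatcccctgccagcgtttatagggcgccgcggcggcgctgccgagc
Rela: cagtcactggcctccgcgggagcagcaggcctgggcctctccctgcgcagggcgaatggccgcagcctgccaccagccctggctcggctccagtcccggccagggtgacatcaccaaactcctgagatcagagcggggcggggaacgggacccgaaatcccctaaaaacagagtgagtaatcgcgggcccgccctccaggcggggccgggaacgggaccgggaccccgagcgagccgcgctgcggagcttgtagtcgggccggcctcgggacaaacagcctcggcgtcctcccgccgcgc
Nfkbib: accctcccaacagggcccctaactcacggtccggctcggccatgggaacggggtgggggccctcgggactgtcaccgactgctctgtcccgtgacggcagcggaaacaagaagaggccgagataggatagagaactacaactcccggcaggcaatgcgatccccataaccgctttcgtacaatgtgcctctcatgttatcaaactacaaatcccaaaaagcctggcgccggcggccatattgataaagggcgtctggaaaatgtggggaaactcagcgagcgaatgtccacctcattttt
In the Nfkb2 window the capitals hold overlapping matches that begin 39 and 38 bases before the start and a further match that begins 11 bases before it. The Nfkbia match begins 29 bases before the start and reads on the opposite strand.

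For the other 3 genes with a match, the match with 10 bases on either side is shown, since these are short sites that differ in their inner bases. The Tnfaip3 window (chr10:19015361-19015660, minus strand) held a match 125 bases and another 12 bases before the start, the Nfkbie window (chr17:45555450-45555749, plus strand) held 1 that begins 106 bases before the start, and the Bcl3 window (chr7:19822706-19823005, minus strand) held 1 that begins at base 3 after the start.
Tnfaip3, distal: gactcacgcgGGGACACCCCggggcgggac
Tnfaip3, proximal: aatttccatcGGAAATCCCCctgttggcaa
Nfkbie: gcagcaaacaGGGGGATTCCggaggggcgg
Bcl3: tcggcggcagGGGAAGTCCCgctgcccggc
Genes with a match stood on both sides. Of the 5 genes with a match, Nfkb2 and Nfkbie were higher, Nfkbia was lower, and Tnfaip3 and Bcl3 overlapped between groups. Rela and Nfkbib, both higher by more than 1 on the log2 scale, had no match in these windows. A looser form of the consensus matched 6 of the 7 genes, Rela included, and 21.5% of all genes.

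**Figure D4:**
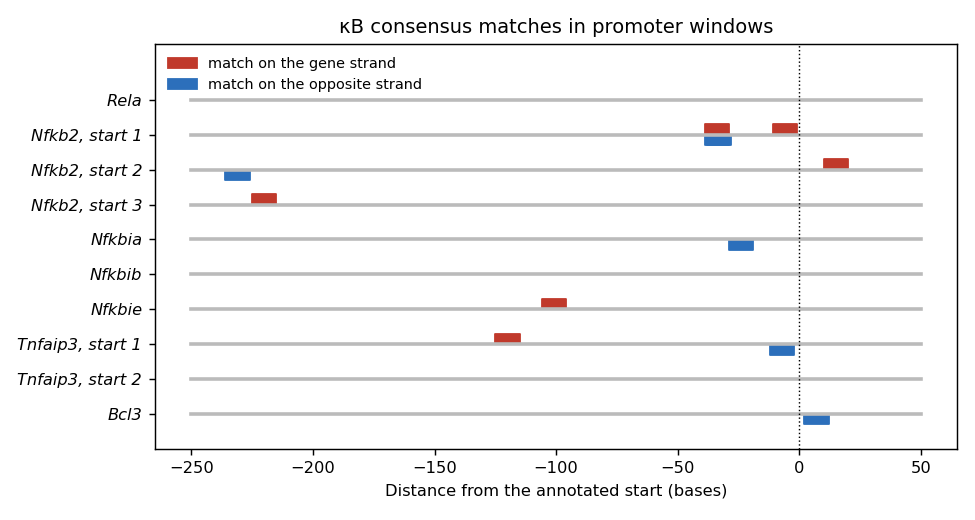
Positions of κB consensus matches (boxes) in the promoter windows of 7 genes, by distance in bases from each annotated start. Matches lie within 40 bases of a start in Nfkb2, Nfkbia, Tnfaip3 and Bcl3, and Rela and Nfkbib have none.

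The rest of the pathway was described with gene lists written from general knowledge, and counts are given beside the background shares above. Of the 25 ligands and receptors, which start the signal, 21 were tested, Cd40lg was at 0 in every library, and 8 rose and 5 fell. That is 61.9% called against 79.3% of all tested genes, with 38.1% higher against 39.9% and 23.8% lower against 39.4%. Tnfrsf12a, the TWEAK receptor, rose from 8053 ± 397 to 12980 ± 245 normalized counts (log2 fold change 0.69, SE 0.039, edgeR adjusted p = 7.5e-10). Cd40, a receptor that drives the non-canonical route, rose from 169.5 ± 8.77 to 365 ± 14.7 (log2 1.11). Il1b and Ltb, ligands of the IL-1 and lymphotoxin β receptors, rose by 1.97 and 1.77 on the log2 scale from at most 19.2 normalized counts in any DMSO library. With limma on log2(CPM + 1), where the added 1 weighs on such low counts, the values were 0.97 and 0.57, both still called. Il1a, the second IL-1 ligand gene, fell from 4091 ± 160 to 2304 ± 17.2 (log2 −0.83), and Tlr3, Il1r1 and Tlr2, which encode sensors of microbial products or IL-1, fell too (log2 −0.47, −0.32 and −0.27). On total counts 10 genes rose and 2 fell, so that 83.3% of the called genes were higher, against 62.9% of all called genes. The calls of Il1r1 and Tlr2 were lost there. Without the first P3FI-90 library 5 genes rose, and without the third DMSO library 3 fell, Tlr2 no longer among them.

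All 31 adaptors and kinases, which pass the signal to the inhibitors, were tested, and 20 rose and 7 fell. That is 64.5% higher against 39.9% of all genes and 22.6% lower against 39.4%, with a median log2 fold change of 0.31. More than 2-fold changes were called for 2 higher and 3 lower of the 31 genes, against 12.7% and 10.6% of all tested genes. On total counts 21 rose and 7 fell, so that 75% of the called genes were higher, against 62.9% of all called genes. Chuk, the gene of IκB kinase α, rose from 3090 ± 27.5 to 6978 ± 183 normalized counts (log2 1.18, SE 0.036, edgeR adjusted p = 1.37e-12). Traf6 and Traf2, ubiquitin ligases of the IL-1 and TNF receptor routes, rose by 1.21 and 0.98, and Tab2, which tethers the TAK1 kinase to ubiquitin chains, rose by 0.90. Among the falls were Ube2n and Ube2v1, which together form the enzyme that builds the ubiquitin chains recognised by that complex (log2 −0.79 and −0.36). Ikbke, an IκB kinase relative, fell from 2241 ± 85.2 to 1034 ± 36.4 (log2 −1.12), and Tradd, the TNF receptor adaptor, from 1043 ± 74.7 to 496.5 ± 15.5 (log2 −1.07). The other subunits of IκB kinase, looked up after the values were seen, differed little from DMSO, with log2 fold changes of 0.12 (SE 0.052) for Ikbkb and 0.09 (SE 0.058) for Ikbkg.

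Of 18 further brakes on the pathway 16 were tested, and 7 rose and 6 fell. The called share was 81.2% against 79.3% of all tested genes, and the median log2 fold change was 0.01 in both, so the list stood near the background. Cyld, a deubiquitinase of the signalling chains, rose from 4503 ± 66.9 to 10392 ± 202 normalized counts (log2 1.21, SE 0.034, edgeR adjusted p = 6.52e-13). Tollip, Tank and Otud7b, which encode inhibitors at the receptor and adaptor level, rose by 1.17, 0.95 and 0.45. With the length and GC trend removed, Otud7b stood at 0.08 and its call was lost. Zc3h12a, encoding the RNase Regnase-1 that degrades inflammatory mRNAs, fell from 1988 ± 82.8 to 698.9 ± 30.1 (log2 −1.51). Pdlim2, whose product promotes the breakdown of nuclear p65, fell from 2042 ± 126 to 739.4 ± 42.008 (log2 −1.47), and Commd1 and Sigirr fell too (log2 −0.74 and −0.68).

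The 9 genes of IκB turnover, which encode the ubiquitin ligase that marks phosphorylated IκB and its regulators, were all called. That is 100% called against 79.3% of all tested genes, with 22.2% higher against 39.9% and 77.8% lower against 39.4%. Fbxw11, encoding a β-TrCP protein that recognises phosphorylated IκB, rose by 0.32 and Ube2d3, a conjugating enzyme gene, by 0.19. The other 7 genes fell, each to a log2 fold change no lower than −0.62. Among them was Btrc, the other β-TrCP gene, named after its value was seen (log2 −0.34, SE 0.072). Skp1, the adaptor of the ligase, went from 11033 ± 298 to 7192 ± 374 normalized counts (log2 −0.62, SE 0.041, edgeR adjusted p = 4.5e-09). Its scaffold gene Cul1 fell (log2 −0.49), and Ube2m and Cops5, which attach and remove the NEDD8 tag of cullins, fell as well (log2 −0.52 and −0.36). With the length and GC trend removed, Ube2d3 went to −0.60, so its direction is not firm. On total counts 2 genes rose and 6 fell, so that 25% of the called genes were higher, against 62.9% of all called genes. Skp1 then stood at −0.40.

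Of 36 inflammatory genes known as NF-κB targets 34 were tested, Cd83 was at 0 in every library, and 15 rose and 14 fell. The called share was 85.3% against 79.3% of all tested genes, with 44.1% higher against 39.9% and 41.2% lower against 39.4%. These shares of genes called at any size of change were near the background. The median log2 fold change was 0.07. More than 2-fold changes were called for 10 higher and 6 lower of the 34 tested genes. Both are larger shares than the 12.7% and 10.6% of all tested genes. The list was written with earlier results of these data known, so this is a description. Icam1, an adhesion molecule gene, rose from 157 ± 7.27 to 1216 ± 63.2 normalized counts (log2 2.95, SE 0.087, edgeR adjusted p = 1.07e-12), and Cxcl10, a T-cell chemokine gene that interferon also induces, from 29.6 ± 6.02 to 593 ± 45.0 (log2 4.30). Gadd45b and Ptgs2, encoding a stress protein and cyclooxygenase-2, rose by 1.75 and 1.02. Csf2, named after its value was seen, had the highest log2 fold change of the list, 4.60.

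The largest fall of the list was that of Cxcl5, a neutrophil chemokine gene, from 48172 ± 1383 to 6037 ± 127 normalized counts (log2 −3.00, SE 0.033, edgeR adjusted p = 9.74e-17). Cxcl1, which encodes a further neutrophil chemokine, and Csf3, the gene of the granulocyte growth factor G-CSF, fell too (log2 −1.49 and −1.89), as did Ier3, an early response gene (log2 −1.78). Tnf is counted both as a ligand and as a target, and Birc3 and Traf1 both as adaptors and as targets.

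**Figure D5:**
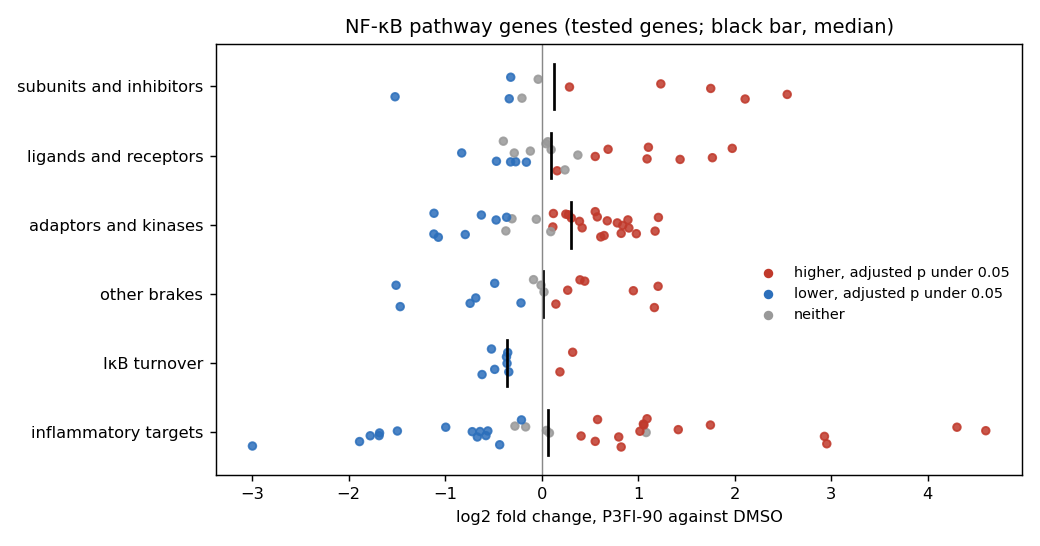
Log2 fold change of P3FI-90 against DMSO (horizontal axis) for each tested gene of the 10-gene set and of 5 pathway lists, coloured by whether edgeR called it higher, lower or neither at an adjusted p under 0.05, with the median as a black bar. Adaptors and kinases lie mostly to the right, IκB turnover genes mostly to the left, and the targets spread from −3.00 to 4.60.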

How the data were processed

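The deposited values are read counts per gene, whole numbers without normalization, that the authors made from 6 mRNA-seq libraries of 4T1 cells (3 DMSO, 3 P3FI-90). The submitters' processing notes name CASAVA, HISAT2, StringTie and GRCm39, with no versions. Strandedness is not given in the sources used here. Rows without a gene identifier (296, holding 0.483 to 0.556% of the counts per library) were left out. In R 4.3.3, edgeR 4.0.16 filtered genes with filterByExpr, scaled by TMM and ran the quasi-likelihood test with Benjamini-Hochberg adjustment over 12288 genes at 0.05 (common biological coefficient of variation 0.0648). The study used limma, which was run as an alternative. No block was used, since equally numbered libraries deviated from their group means with correlations of −0.021, 0.015 and 0.0049 only. Libraries of the same group differed from each other beyond counting noise (chi-square per gene between 5.44 and 8.43) and were kept as separate replicates.

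The genes and the pathway lists were chosen with earlier results of these data known. Named pathway genes are up to 4 called genes with the smallest p per list and direction, and genes at 0 throughout. Btrc, Csf2, Ikbkb and Ikbkg were added after their values were seen. Lengths and overlaps came from GENCODE M21 (GRCm38), which holds 12263 of the tested genes, and promoters from RefSeq GRCm38.p6, so no coordinates of the counting build are given. The fits were tested on simulated data with few changed genes. Such data cannot check the scaling or the error rates where most genes differ, as here. Alternatives were DESeq2 1.42.0 size factors, total counts and upper quartiles, dropping the filter or asking for 10 counts in each library, DESeq2's Wald test, limma 3.58.1 voom or limma on log2(CPM + 1), a replicate block, each library left out in turn, the longest transcript, a looser κB consensus and, added after seeing the data, removal of a length and GC trend. Protein sequences were not analysed here.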

Additional observations from a re-analysis of the deposited data

How the results depend on the processing

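Of the 150 log2 values of the 10 genes under the 15 alternative ways of processing, 136 moved by less than the SD between replicates, 14 moved by more and 0 changed from a call in one direction to the other. The 8 called genes were called under all 15. Tnfaip3 was called higher on total counts, and Bcl3 lower without the second P3FI-90 library. Removal of the length and GC trend is not among the 15, and there 9 of the 10 values moved by more than that SD. Tnfaip3 was then called lower, at −0.31. Genes called numbered 9749, and from 9445 to 9708 with a library left out and 9249 to 9899 under the others. On total counts 6179 of all genes were called higher and 3641 lower, against 4908 and 4841. The split of the further brakes was then 9 and 5, against 7 and 6.

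Ligands and receptors were called higher in 5 to 6 and lower in 3 to 6 cases with a library left out, and lower in 2 on total counts. With the length and GC trend removed, 1 gene of IκB turnover was called higher, Ube2d3 stood at −0.60 and Kdm3b at −0.072. The cause was not tested. Equally numbered libraries share only a number. With the replicate block 9524 genes were called, 4802 higher and 4722 lower, and the same 8 of the 10 genes. By the longest transcript the DMSO levels per length were 67.8 for Rela, 11.4 for Relb, 47.4 for Tnfaip3 and 65.0 for Nfkbiz.

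With 3 libraries per group of unstated origin, p-values cover the spread between these libraries.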
